A study of Danio rerio with 10 samples.

Results

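The genes described here are 10 core members of the circadian clock in zebrafish, namely 9 repressors (per1b, per2, per3, cry1a, cry1b, bhlhe40, bhlhe41, nr1d1 and nr1d2a) and the activator clocka. They were found on the array as every probe set whose single gene symbol in the platform annotation is one of these names. The rule gave 8 of the 10 genes, of 8793 genes named on the array, with 9 probe sets of the 15502 tested. No probe set with a single symbol was found for per1b or nr1d1, which are not analysed here. The tissue was whole kidney marrow, in which adult zebrafish form their blood cells. Arrays of 5 fish that overexpress the human transcription factor CREB, which responds to cyclic AMP, were compared with those of 5 control fish. The promoter of the transgene, the hour of collection, the light and feeding conditions, and the age and sex of the fish are not given in the sources used here.

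The vertebrate clock is a feedback loop of transcription. CLOCK proteins, paired with BMAL proteins, bind E-box elements and switch on period (per) and cryptochrome (cry) genes, whose protein products gather in complexes that inhibit CLOCK and BMAL. BHLHE40 and BHLHE41, also called DEC1 and DEC2, are basic helix-loop-helix repressors that occupy E-boxes themselves, and the nuclear receptors of the NR1D family, also called REV-ERB, repress bmal genes. In zebrafish most tissues carry a clock that responds directly to light, and per2 and cry1a are known as light-induced genes. In mammals a period gene is a textbook target of CREB, which couples outside signals to the clock. Whether per2 or any other gene described here is a direct target of CREB was not tested.

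Values are the deposited signals on a log2 scale, 1 per probe set and array, so that a difference of 1 is a doubling. Differences are CREB minus control, and a probe set passed where limma, fitted over all 15502 probe sets, gave a two-sided Benjamini-Hochberg adjusted p under 0.05. Array medians lay between 5.72 and 5.93. The number of arrays limits the precision, and the p-values weigh each difference against the spread between arrays of the same group. Neutrophil markers (10 genes, of which 5 were lower and none higher) averaged 10.06 ± 0.50 on the CREB arrays and 11.11 ± 0.50 on the control arrays (SD, n = 5 each). Erythroid markers (8 genes, of which none passed) averaged 9.89 ± 0.72 and 10.09 ± 0.31. Blood cell transcripts were thus bright in both groups, while the neutrophil level differed by -1.05. In whole tissue, fewer cells of a type and less RNA per cell cannot be told apart. The part of RNA from other tissues, described next, in the neutrophil level was not tested.

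The arrays also differed in transcripts of tissues other than blood and in control probe sets. Skeletal muscle transcripts (20 genes, of which 18 were higher and none lower) averaged between 7.11 and 9.41 on the CREB arrays and between 4.75 and 5.18 on the control arrays. Kidney tubule and glomerulus genes (15, of which 12 were higher and none lower) averaged between 8.75 and 9.90 on the CREB arrays and between 7.53 and 8.37 on the control arrays. Gonad and egg genes (11) averaged between 4.99 and 7.40 on the CREB arrays, against 8.50 or more on control arrays 3, 4 and 5 and 5.85 or less on control arrays 1 and 2. Exocrine pancreas genes (14) averaged between 5.98 and 6.75 on the CREB arrays, against 9.74 or more on control arrays 4 and 5 and 6.72 or less on the other control arrays. The gapdh 3' signal exceeded the gapdh 5' signal by 4.89 and 4.46 on CREB arrays 3 and 5, against 1.06 to 1.53 on the other 8 arrays. Control probe sets for tag sequences, which no zebrafish transcript should fill, averaged 4.33 ± 0.10 on the CREB arrays and 4.08 ± 0.11 on the control arrays (SD, n = 5 each), with no overlap.

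Of the 9 clock probe sets, 8 were higher in CREB fish, none was lower and 1 did not pass. Among all probe sets tested 23.5% were higher and 6.79% lower. The 8 comprised 7 of the 8 repressor probe sets and the single activator probe set, and the same 8 had no overlap between the groups, with the lowest CREB array above the highest control array. Over all probe sets 19.6% were free of overlap in that direction and 4.2% in the other. The median difference of the 9 was 0.88, against 0.18 for all probe sets. Both medians depend on the scaling between arrays. Under quantile, median and cyclic loess scaling 7 of the 9 were higher and their median was 0.83, 0.82 and 0.72, against 0.04, 0.11 and -0.01 for all probe sets. Under these scalings 11.1%, 12.9% and 9.5% of all probe sets were higher and 7.28%, 7.5% and 8.8% lower. Without control arrays 3, 4 and 5, the arrays with egg or pancreas transcripts, 2 of the 9 passed (the brighter of 2 per2 probe sets and bhlhe41), where 0.922% of all probe sets were higher and 1.46% lower, and the median of the 9 was 0.83. Without CREB arrays 3 and 5, described above for their gapdh signal, 7 of the 9 passed, where 10.7% of all probe sets were higher and 2.39% lower, and the median of the 9 was 1.13.

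**Figure D1:**
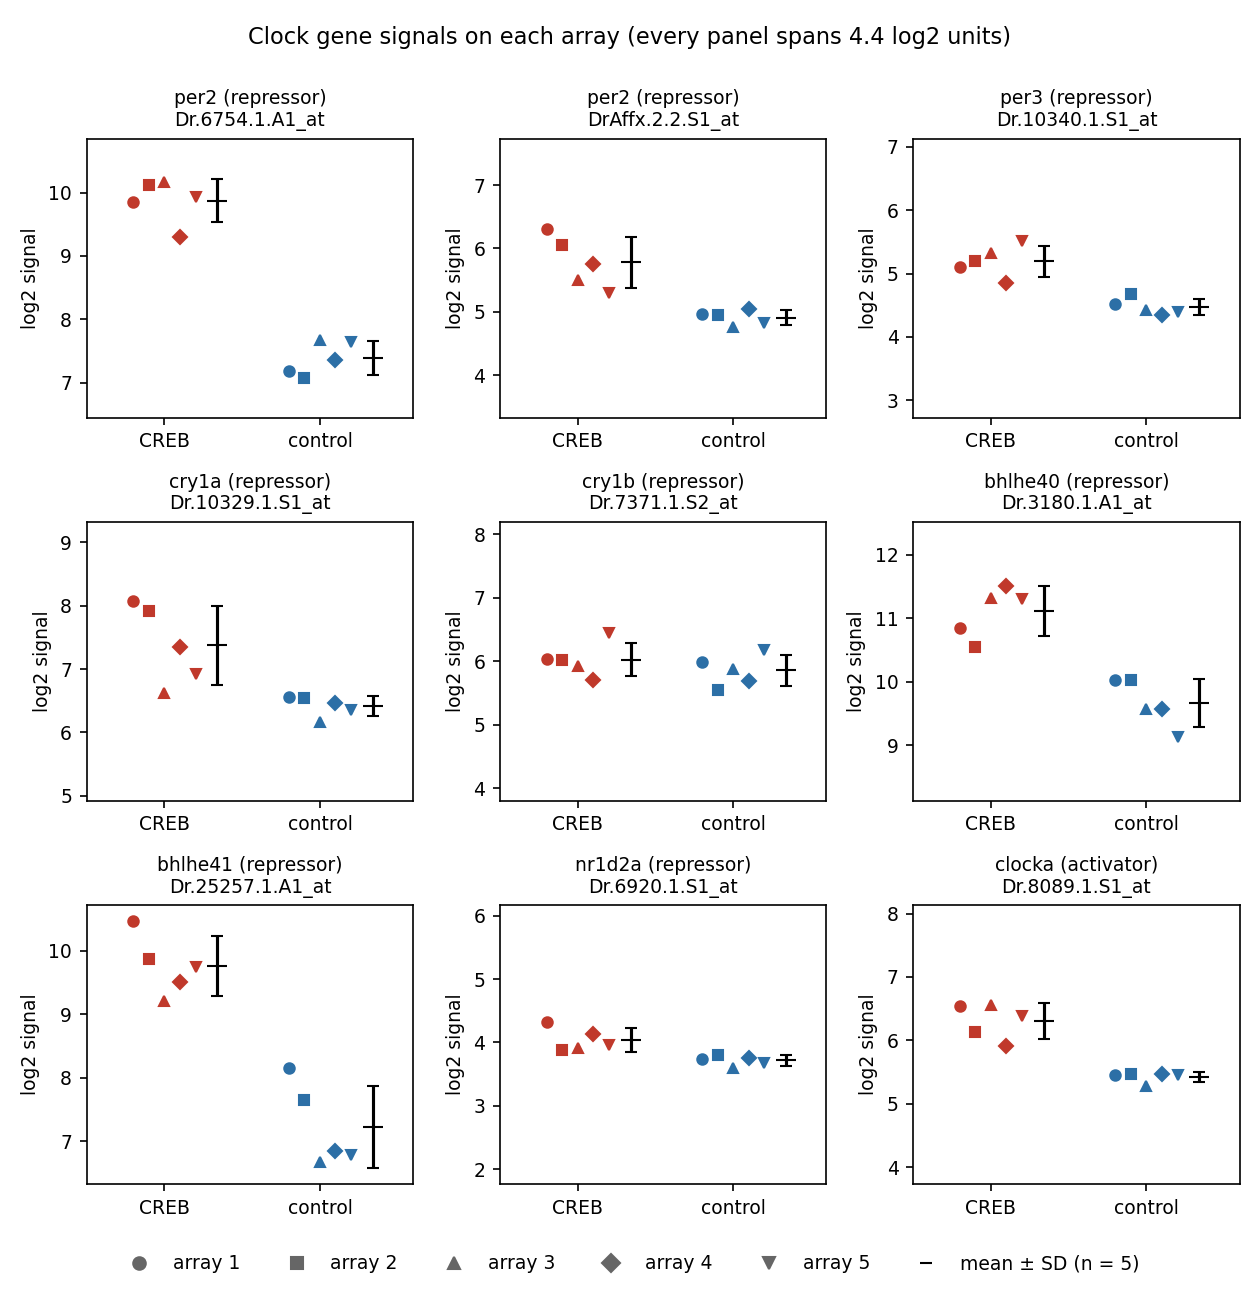
Log2 signal of each clock probe set on every array, with CREB arrays in red on the left of each panel, control arrays in blue, and the mean ± SD of 5 arrays as a bar; every panel spans 4.4 log2 units. In 8 of the 9 panels the lowest CREB array lies above the highest control array, and the groups overlap for cry1b.

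The period gene per2 (Entrez gene 140633), a clock repressor, was represented by 2 probe sets, and both rose. The brighter one had log2 signals of 9.85, 10.12, 10.16, 9.31 and 9.93 on CREB arrays 1 to 5, against 7.19, 7.08, 7.68, 7.35 and 7.64 on control arrays 1 to 5. The gap of 1.63 between the nearest arrays of the 2 groups was larger than the spread within either group, 0.85 among CREB arrays and 0.60 among control arrays. CREB fish averaged 9.87 ± 0.34 and control fish 7.39 ± 0.27 (SD, n = 5 each), a 5.60-fold rise (limma, adjusted p = 0.000221), whose p ranked number 6 among the 15502 probe sets. The difference of this brighter probe set kept its size under every alternative tried, between 2.37 and 2.74, with a limma adjusted p of 0.00903 or less.

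The dimmer per2 probe set had log2 signals of 6.30, 6.05, 5.50, 5.75 and 5.30 on CREB arrays 1 to 5, against 4.97, 4.95, 4.76, 5.04 and 4.82 on the control arrays. It was higher on every CREB array, and within the CREB group it was lowest on arrays 3 and 5, the 2 arrays with the weak gapdh 5' signal. The brighter per2 probe set did not share that order, since CREB array 3 was its highest and CREB array 4 its lowest. The difference of the dimmer probe set was 0.88 ± 0.18 (SE; limma, adjusted p = 0.0100), with a 95% interval of 0.47 to 1.28, which lies below the interval of 2.07 to 2.90 of the brighter probe set. Without CREB arrays 3 and 5 the dimmer probe set differed by 1.13 (adjusted p = 0.00833) and the brighter by 2.37 (adjusted p = 0.00314). Without control arrays 3, 4 and 5 the dimmer one, at 0.82, did not pass (adjusted p = 0.122). Under quantile and cyclic loess scaling its difference was 0.71 and 0.64 and passed (limma, adjusted p = 0.0251 and 0.0267). Its control mean of 4.91 was less than 1 log2 unit above that of the tag control probe sets, 4.08.

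The other measured period gene, per3 (Entrez gene 58107), rose at a low signal. Its log2 signals were 5.10, 5.20, 5.33, 4.86 and 5.51 on CREB arrays 1 to 5, against 4.52, 4.67, 4.42, 4.34 and 4.40 on control arrays 1 to 5. The groups did not overlap, with a gap of 0.18, and CREB array 4 was the lowest of its group as it was for the brighter per2 probe set. The difference of 0.72 ± 0.13 (SE; limma, adjusted p = 0.00679) came in a range of signal where higher values were frequent. Of the 2887 probe sets with a mean between log2 4 and 5, 36.8% were higher, and their median difference was 0.33. Under cyclic loess scaling the per3 difference was 0.44 (adjusted p = 0.0365), and without control arrays 3, 4 and 5 it was 0.60 and did not pass (adjusted p = 0.116).

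The E-box repressor bhlhe41 (Entrez gene 563771) rose by 2.54 ± 0.33, close to the 2.49 ± 0.19 of the brighter per2 probe set (SE), and the order of this pair turned under several alternatives, such as array weights (2.45 for bhlhe41 and 2.61 for per2). Its log2 signals were 10.47, 9.87, 9.21, 9.52 and 9.75 on CREB arrays 1 to 5, against 8.16, 7.65, 6.67, 6.85 and 6.78 on control arrays 1 to 5. The nearest arrays of the 2 groups were 1.06 apart, and among the controls arrays 1 and 2 were above arrays 3, 4 and 5. CREB fish averaged 9.76 ± 0.47 and control fish 7.22 ± 0.65 (SD, n = 5 each), a 5.82-fold rise (limma, adjusted p = 0.00218). The difference of 2.54 was 1.86 without control arrays 3, 4 and 5, where bhlhe41 passed (adjusted p = 0.0393).

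Its paralogue bhlhe40 (Entrez gene 324413), with the brightest signal of the 9, also rose. Its log2 signals were 10.85, 10.55, 11.32, 11.51 and 11.31 on CREB arrays 1 to 5, against 10.03, 10.03, 9.57, 9.57 and 9.13 on control arrays 1 to 5. Both paralogues were higher on control arrays 1 and 2 than on control arrays 3, 4 and 5, the arrays with egg or pancreas transcripts, and the part of those transcripts in this order was not tested. Within the CREB group their orders differed, since CREB array 1 was the highest for bhlhe41 and CREB array 4 for bhlhe40. The bhlhe40 difference was 1.44 ± 0.23 (SE), or 2.72-fold (limma, adjusted p = 0.00424), and it was 1.08 without control arrays 3, 4 and 5, where it did not pass (adjusted p = 0.0781).

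Of the cryptochromes, which join period proteins in the repressing complex, cry1a (Entrez gene 100003956) rose and its paralogue cry1b (Entrez gene 554836) did not pass. The cry1a signals were 8.08, 7.91, 6.62, 7.35 and 6.92 on CREB arrays 1 to 5, against 6.55, 6.54, 6.16, 6.47 and 6.36 on control arrays 1 to 5. The groups were free of overlap by only 0.07, because CREB arrays 3 and 5 lay close to the controls while CREB arrays 1 and 2 lay far above them. The spread of cry1a was 1.46 among CREB arrays and 0.39 among control arrays. CREB fish averaged 7.38 ± 0.62 and control fish 6.42 ± 0.16 (SD, n = 5 each; limma, adjusted p = 0.0248), a difference of 0.96 ± 0.27 (SE). CREB arrays 3 and 5 are those with the weak gapdh 5' signal, and without them the difference was 1.37 (adjusted p = 0.00875); the part of RNA quality was not tested. The call was lost without control array 3 (0.90, adjusted p = 0.0547) and without control array 5 (0.95, adjusted p = 0.0505), and without control arrays 3, 4 and 5 (0.83, adjusted p = 0.213).

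The cry1b signals were 6.04, 6.01, 5.93, 5.71 and 6.44 on CREB arrays 1 to 5, against 5.98, 5.55, 5.88, 5.69 and 6.18 on control arrays 1 to 5. The groups overlapped over most of their range, and array 5 was the highest in both. The difference of 0.17 ± 0.16 (SE; limma, adjusted p = 0.432) had a 95% interval of -0.19 to 0.53, so that a fall of up to 0.19 or a rise of up to 0.53 fits within the error. The cry1a interval was 0.37 to 1.56, and the difference between the paralogues was not tested.

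The nuclear receptor gene nr1d2a (Entrez gene 402815), a repressor of bmal genes in vertebrates, had the lowest signal of the 9. It was at 4.33, 3.88, 3.91, 4.14 and 3.96 on CREB arrays 1 to 5, against 3.74, 3.80, 3.60, 3.76 and 3.67 on control arrays 1 to 5. Its means, 4.04 ± 0.19 for CREB and 3.72 ± 0.08 for control fish (SD, n = 5 each), were below those of the tag control probe sets, at 4.33 and 4.08, and the difference of 0.33 ± 0.11 (SE; limma, adjusted p = 0.0482) stood beside one of 0.25 in the tag probe sets. Under quantile and cyclic loess scaling the difference was 0.06 in both, with adjusted p of 0.688 and 0.694. The call was also lost under median scaling and on leaving out any 1 array other than CREB array 2 (largest of these adjusted p, 0.109).

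The activator clocka (Entrez gene 30140) moved in the same direction as the repressors. This gene encodes a CLOCK protein, the partner of BMAL that switches on per and cry genes. Its log2 signals were 6.53, 6.13, 6.55, 5.90 and 6.39 on CREB arrays 1 to 5, against 5.45, 5.47, 5.28, 5.47 and 5.45 on control arrays 1 to 5. The 5 control arrays lay within 0.19 of each other, and the lowest CREB array was 0.43 above the highest of them. CREB fish averaged 6.30 ± 0.28 and control fish 5.42 ± 0.08 (SD, n = 5 each), and the difference was 0.88 ± 0.14 (SE), or 1.84-fold (limma, adjusted p = 0.00422). The 2793 probe sets with a mean between log2 5 and 6 had a median difference of 0.21, and 26.5% of them were higher. Across the 3 scalings the clocka difference lay between 0.72 and 0.83 and passed in each, and without control arrays 3, 4 and 5 it was 0.84 and did not pass (adjusted p = 0.0769).

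**Figure D2:**
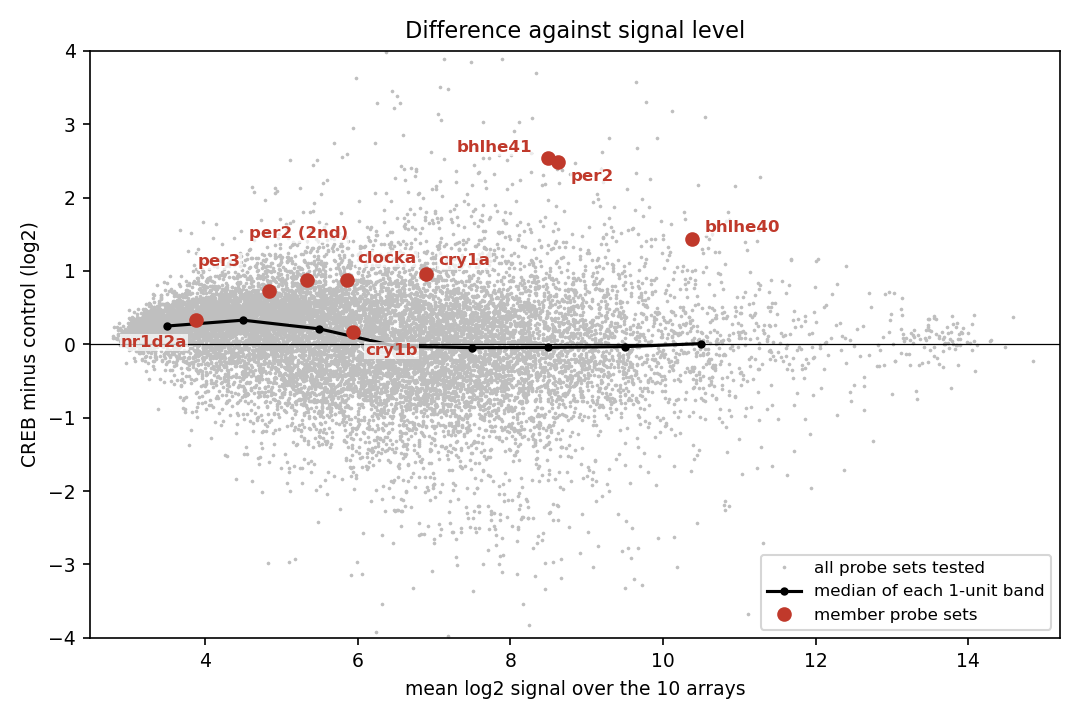
CREB minus control difference (log2) of every probe set tested (grey) against its mean log2 signal over the 10 arrays, with the median of each band 1 unit wide in black and the clock probe sets in red; 22 probe sets beyond 4 units are not drawn. The bright probe sets of per2, bhlhe41 and bhlhe40 lie in bands with medians between -0.04 and 0.01, and the dim members in bands below log2 6 with medians between 0.21 and 0.33.

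The differences were also set beside those of all probe sets of like signal. Measured from the median of its own band 1 unit wide, the difference of the brighter per2 probe set was 2.53, of bhlhe41 2.58, of bhlhe40 1.43 and of cry1a 0.99. Between log2 8 and 9, where per2 and bhlhe41 lie, the median over all probe sets was -0.04, and 14.6% of them were higher. The same measure was 0.67 for the dimmer per2 probe set, 0.67 for clocka, 0.40 for per3, 0.08 for nr1d2a and -0.04 for cry1b. Bands of dim probe sets had positive medians, 0.25 between log2 3 and 4 and 0.33 between log2 4 and 5.

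**Figure D3:**
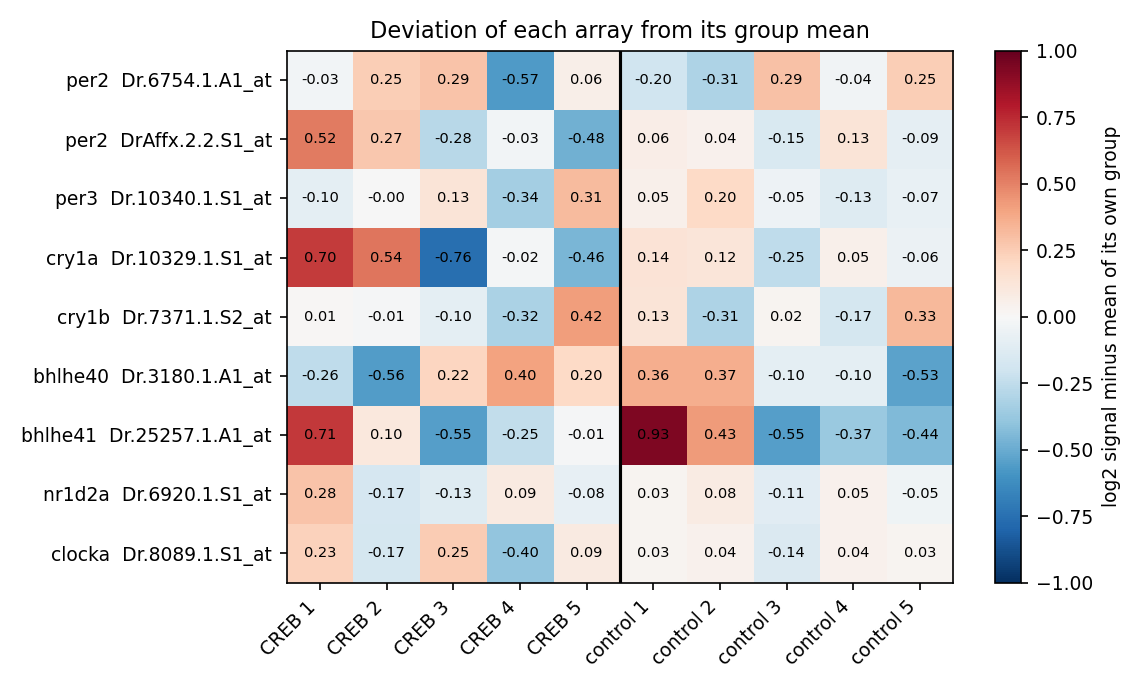
Deviation of each array (columns) from the mean of its own group for each clock probe set (rows), in log2 units from -1 (blue) to 1 (red), with the values printed; the black line parts CREB from control arrays. CREB arrays 1 and 2 are high and arrays 3 and 5 low for cry1a and the dimmer per2 probe set, and control arrays 1 and 2 are high for bhlhe41 and bhlhe40.

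Among themselves the clock probe sets did not share 1 order of arrays. The spread among CREB arrays exceeded that among control arrays for 8 of the 9, bhlhe41 being the exception. CREB array 4 was the lowest of its group for 4 probe sets, the brighter per2 probe set, per3, cry1b and clocka, while it was the highest for bhlhe40. Control array 3 was the lowest of its group for 5, namely the dimmer per2 probe set, bhlhe41, cry1a, nr1d2a and clocka, while it was the highest for the brighter per2 probe set. The muscle level was highest on CREB arrays 1 and 5 (9.41 and 9.32) and lowest on array 3 (7.11). Of the 9 clock probe sets, 4 were at their highest on CREB array 1 (the dimmer per2 probe set, bhlhe41, cry1a and nr1d2a) and 2 on CREB array 5 (per3 and cry1b). On CREB array 3 bhlhe41 (9.21) and cry1a (6.62) were at their lowest, and per2 (brighter probe set, 10.16) and clocka (6.55) at their highest. The kidney level was lowest on CREB array 4 (8.75), where the brighter per2 probe set, per3, cry1b and clocka were lowest. The dimmer per2 probe set was lowest on CREB array 5. The part of muscle and kidney transcripts in the clock gene differences was not tested. Both levels were higher on every CREB array than on any control array, so that their part cannot be told apart from that of the transgene.

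The rest of the clock pathway, 29 further genes each read from its brightest probe set, held 10 genes that were higher, 2 that were lower and 17 that did not pass. Over all 8793 named genes 19.3% were higher and 9.09% lower. The median difference of the 29 was 0.28, against 0.10 for all named genes. The count depended on the scaling, with 5 higher and 3 lower under quantile, 6 and 2 under median and 4 and 3 under cyclic loess scaling. Under these scalings 11.1%, 12.9% and 9.5% of all probe sets were higher and 7.28%, 7.5% and 8.8% lower. Without control arrays 3, 4 and 5 the count was 1 higher (fbxw11b) and none lower, so that none of the 12 genes passed there. In that fit calls were few over all probe sets, with 0.922% higher and 1.46% lower, and the median difference of the 29 was 0.21. Leaving out control array 1 gave 5 higher, and leaving out control array 4 gave 6.

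Other genes of the activating arm went both ways. Of 7 measured, 4 were higher, 1 was lower and 2 (bmal2 and rorcb) did not pass. Among all named genes 19.3% were higher and 9.09% lower. The CLOCK paralogue clockb had log2 signals of 5.57, 5.10, 5.16, 4.88 and 5.39 on CREB arrays 1 to 5, against 4.45, 4.70, 4.43, 4.66 and 4.54 on control arrays 1 to 5, a difference of 0.67 ± 0.14 (SE; limma, adjusted p = 0.0100). The related gene npas2, which can stand in for CLOCK in mammals, rose by 0.76 ± 0.19, and the receptor gene rorab, whose family activates bmal genes, by 1.22 ± 0.26 (SE; limma, adjusted p = 0.0159 and 0.0111). The clockb difference was 0.38 under cyclic loess scaling, where it passed, and that of rorab was 0.81 without control arrays 3, 4 and 5. Without CREB arrays 3 and 5 neither rorab (1.06, adjusted p = 0.0560) nor npas2 (0.62, adjusted p = 0.0832) passed. Both npas2 and rorab, like clocka, were lowest on control array 3 or 5 among controls and on CREB array 4 among CREB arrays.

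Of the 2 bmal1 genes, which encode partners of CLOCK, bmal1a was lower and bmal1b higher, and the difference between them was not tested. The bmal1a signals were 5.71, 5.46, 5.25, 5.92 and 5.11 on CREB arrays 1 to 5, against 6.16, 5.99, 7.23, 6.19 and 6.97 on control arrays 1 to 5. All CREB arrays were below all control arrays, by 0.07 at the nearest, and control arrays 3 and 5, the 2 with the highest gonad and egg levels, had the highest bmal1a signals. The fall of 1.02 ± 0.27 (SE; limma, adjusted p = 0.0204) was -0.59 without control arrays 3, 4 and 5 and did not pass there (adjusted p = 0.160), nor without CREB arrays 3 and 5 (-0.81, adjusted p = 0.105). The part of egg transcripts was not tested. The paralogue bmal1b averaged 5.23 ± 0.15 for CREB and 4.90 ± 0.12 for control fish (SD, n = 5 each), a difference of 0.34 ± 0.11 (SE; limma, adjusted p = 0.0394) that did not pass under any of the 3 scalings (0.13, 0.28 and 0.07). It also did not pass without CREB arrays 3 and 5, nor without CREB array 1, 2 or 3 or any 1 of the control arrays.

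Of 5 further genes listed here as repressors, 2 were higher and 3 (cry3a, cry3b and nr1d2b) did not pass. Beside them, 19.3% of all named genes were higher and 9.09% lower. Whether each of the 5 represses the zebrafish clock was not tested. The cryptochrome gene cry2 had log2 signals of 8.41, 8.36, 7.31, 7.55 and 7.37 on CREB arrays 1 to 5, against 6.89, 6.92, 7.22, 6.69 and 7.01 on control arrays 1 to 5. As for cry1a, CREB arrays 1 and 2 stood far above the controls and CREB arrays 3 and 5 close to them. The rise of 0.85 ± 0.24 (SE; limma, adjusted p = 0.0262) was 1.16 without CREB arrays 3 and 5, and a second cry2 probe set rose by 0.58 ± 0.15 (SE; limma, adjusted p = 0.0181). The call was lost without control arrays 3, 4 and 5 (0.89, adjusted p = 0.156), and without CREB array 1, control array 1 or control array 4. The E-box repressor gene ciarta, named with its value known, rose by 0.91 ± 0.26 (SE; limma, adjusted p = 0.0268). This call was lost under cyclic loess scaling (adjusted p = 0.0765) and without CREB arrays 3 and 5 (0.66, adjusted p = 0.132) or either of them, and without control array 1 or 4.

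Of 4 genes whose products act at D-box elements of clock output genes, 1 was higher and 3 did not pass. The shares over all named genes were 19.3% higher and 9.09% lower. The D-box activator gene tefb rose by 0.48 ± 0.13 at a signal of 5.24 in CREB fish and 4.76 in control fish (SE; limma, adjusted p = 0.0219), and did not pass under the 3 scalings (0.28, 0.42 and 0.21) or without CREB array 5, alone or with CREB array 3. A dimmer tefb probe set, with means below those of the tag control probe sets, differed by 0.16 and did not pass (limma, adjusted p = 0.222). The nfil3-6 gene differed by 0.36 with its brightest probe set (limma, adjusted p = 0.516), while a dimmer one passed (limma, adjusted p = 0.00679) with a mean of 5.35 in CREB fish and 3.93 in control fish, the second below the tag control probe sets, so that no size is given. The casein kinase gene csnk1e, which encodes a kinase that phosphorylates period proteins, rose by 0.81 ± 0.21 (SE; limma, adjusted p = 0.0194). The kinase genes csnk1db and gsk3ba, named with their values known, rose by 0.63 and 0.77 (limma, adjusted p = 0.0270 and 0.0277), and the other 6 kinase and ubiquitin ligase genes did not pass. Some of these 6 passed under alternatives. The ligase gene fbxl3a was lower with array weights, the replicate block and without CREB array 1 (-0.96, -0.72 and -0.93; limma, adjusted p = 0.0190, 0.0323 and 0.0373). The kinase gene gsk3ab was higher without CREB arrays 3 and 5 (0.72; limma, adjusted p = 0.0273), and the ligase gene fbxw11b with array weights (0.69; limma, adjusted p = 0.0357). None of csnk1e, csnk1db and gsk3ba passed under quantile or cyclic loess scaling, and csnk1e and csnk1db did not pass without CREB arrays 3 and 5. Leaving out 1 array ended the call of csnk1db (CREB array 3 or 5, or control array 1, 2 or 4) and of gsk3ba (CREB array 1, or control array 1 or 3).

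Of 4 measured genes of the photolyase and cryptochrome family outside the core loop, none was higher and 1 was lower. Over all named genes the shares were 19.3% higher and 9.09% lower. The gene cpdp, which encodes the photolyase that repairs cyclobutane pyrimidine dimers, fell, and cry4, cry5 and cry-dash did not pass (differences of -0.37, -0.22 and -0.19). The call of cry4 depended on the setting, since it was lower under quantile (-0.53, adjusted p = 0.0477) and cyclic loess scaling (-0.60, adjusted p = 0.0320) and without CREB array 4 (-0.48, adjusted p = 0.0349). A second probe set of cry5 and one of cry-dash had differences of the other sign, at 0.06 each. The cpdp signals were 5.73, 5.98, 6.01, 5.82 and 5.61 on CREB arrays 1 to 5, against 6.55, 6.25, 6.58, 6.52 and 6.58 on control arrays 1 to 5. The groups did not overlap, and the difference was -0.67 ± 0.12 (SE; limma, adjusted p = 0.00559). Differences of the opposite sign were seen for per2 (2.49 with the brighter and 0.88 with the dimmer probe set) and for cry1a (0.96).

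**Figure D4:**
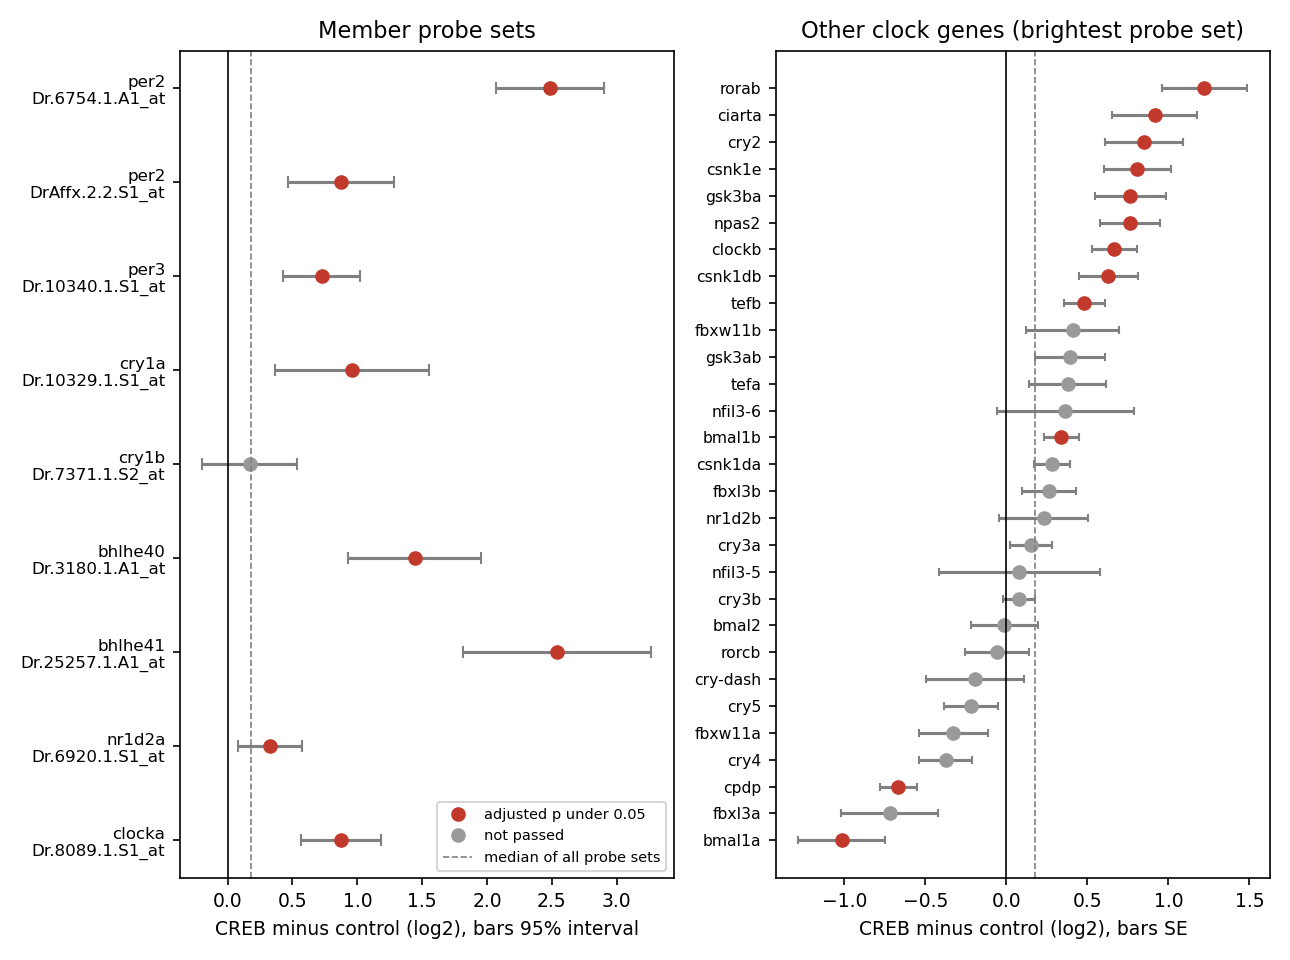
CREB minus control differences (log2) of the 9 clock probe sets with 95% intervals (left) and of 29 other clock genes with their SE (right); red marks adjusted p under 0.05 and the dashed line the median of all probe sets (0.18). The brighter per2 probe set and bhlhe41 lie near 2.5 on the left, and on the right rorab is the highest at 1.22 and bmal1a the lowest at -1.02.

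The genes most like per2 and clocka were sought by the root mean square difference between profiles over the 10 arrays, each centred on its own mean. The nearest to the brighter per2 probe set were cldn10l2, gadd45ba and dusp1, at root mean square differences of 0.26, 0.36 and 0.38. Their log2 differences between CREB and control fish were 2.40, 2.33 and 2.17, close to the 2.49 of per2. Nearest to clocka were dlx4a, hoxc13a and xiap, at root mean square differences of 0.0970, 0.0985 and 0.101, with log2 differences of 0.78, 0.78 and 0.98. On the control arrays hoxc13a lay between 3.73 and 4.16 and dlx4a between 4.77 and 4.97, where the tag control probe sets averaged 4.08. Levels this low limit what can be read from the differences of hoxc13a and dlx4a. Likeness of this kind rests mainly on a difference of the same size between the groups.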

How the data were processed

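Biotin-labelled cRNA from kidney marrow RNA was hybridised to Affymetrix zebrafish arrays, per the labels' protocols. The authors deposited 1 processed value per probe set and array for 15617 probe sets on 10 arrays, and their range (2.57 to 15.04) gave the unit as log2. The way they summarised and normalized the arrays was not given in the sources used here. The scaling between arrays is therefore unknown, and genes were not centred.

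Control probe sets (115) were left out of the fit. Of the remaining 15502, 10795 had 1 gene symbol in the platform annotation (10711 updated by Entrez ID through RefSeq names of GRCz12tu, 84 kept), 135 had several and 4572 are unnamed here. The comparison of CREB with control used limma 3.58.1 and R 4.3.3 (functions lmFit and eBayes, no covariate, no filter). Further clock genes were read from the probe set with the highest mean. The fit was also run on simulated data with independent noise for each value. That run held no tissue or RNA quality differences between arrays and so does not speak to them. Python 3.11.15, pandas 2.3.3 and matplotlib 3.10.9 made annotation and figures.

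Members, lists and alternatives were chosen with earlier results of these data known. Named genes were all members, the other clock genes with the smallest p among those that passed (up to 8), bmal1a, bmal1b, cry2 and clockb, and the 3 genes most like per2 and clocka; clone names were passed over. Promoter sequences were not used here. Alternatives were 3 scalings, a filter on dim probe sets (mean below log2 6), a mean-variance trend with robust eBayes, array weights, a replicate block, leaving out arrays, and averaging each gene's probe sets.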

Additional observations from a re-analysis of the deposited data

Results flagged for a closer look

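In 4 of 42 groups checked (21 probe sets in both groups), 1 array lay far from the other 4, its gap to the nearest of them exceeding 0.71 of the group's range; chance gives about 1 in 20. Control array 3 was low for clocka (5.28, against 5.45 to 5.47 on the other control arrays), for tefb (4.44, against 4.79 to 4.90) and for bmal1b (4.69, against 4.92 to 4.98). Control array 2 was low for cpdp (6.25, against 6.52 to 6.58). All 4 were in control fish. Without control array 3 the differences were 0.84 for clocka, 0.40 for tefb and 0.29 for bmal1b, of which bmal1b did not pass (limma, adjusted p = 0.0813). Leaving out control array 2 gave a cpdp difference of -0.73.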

How the results depend on the processing

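Of the clock probe sets, 8 were higher as reported, 4 of the 4 that remained when dim probe sets were left out, 2 without control arrays 3, 4 and 5, and between 6 and 8 when each array was left out. The number lower was 0 throughout. Over all 15502 probe sets, 4692 passed in either direction as reported, 369 without control arrays 3, 4 and 5 and 2034 without CREB arrays 3 and 5. Under quantile, median and cyclic loess scaling 2852, 3163 and 2837 passed. With each array left out, between 3125 and 5163 passed. When dim probe sets were left out, 1526 of those that remained passed, and the share in each direction is not given for that fit. In the fit as reported, between 14.6% and 17.0% of probe sets were higher in the bands from log2 6 to 11. Between 9.34% and 12.5% were lower there. For the 29 other clock genes, 10 higher and 2 lower, the number higher was 5, 6 and 4 under quantile, median and cyclic loess scaling, 5 of 18 without dim probe sets, 1 without control arrays 3, 4 and 5, 4 without CREB arrays 3 and 5, and between 5 (without control array 1) and 10 with each array left out, among them 6 without control array 4; the number lower was 0 without control arrays 3, 4 and 5, 1 without CREB arrays 3 and 5, and 2 or 3 with each array left out. Differences were recomputed for the 9 member probe sets and for 12 other clock genes, and none of these 21 changed sign where recomputed. Averaging each gene's probe sets was used only for the counts of other clock genes. Dim probe sets have no value under the filter that leaves them out. Of the other genes named, only cry4, fbxw11b, fbxl3a and gsk3ab are described under an alternative, where they passed. The fit without 3 control arrays compares 5 arrays with 2. With the replicate number as a block, 7 clock probe sets and 6 other clock genes were higher. Of all 15502 probe sets, 2378 passed in either direction with that block. Correlations of same-numbered arrays' deviations lay between -0.02 and 0.27, and 2 of 10 arrays correlated best with their own number. The numbers were therefore not taken as pairs. The motif description planned for promoters was not run. Some control means were below those of the tag probe sets or less than 1 log2 unit above them. Among these were nr1d2a, per3, the dimmer per2 probe set, clockb, tefb, csnk1e, bmal1b, dlx4a, hoxc13a and the dimmer nfil3-6 probe set. Such levels limit what can be read from these differences.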
